A study of Mus musculus with 12 samples.

Results

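Kupffer cells are the resident macrophages of the liver, and the genes described here are 10 that mark them: Clec4f, Vsig4, Cd5l, Timd4, Marco, Cd163, Folr2, Spic, Slc40a1 and Hmox1. They were taken by gene symbol from the table of bulk RNA sequencing counts, in which they are 10 of 23472 gene entries, and all 10 were read deeply enough to be tested. The libraries came from hepatic stellate cells (HSC), the vitamin A-storing pericytes of the sinusoid, and from liver sinusoidal endothelial cells (SEC), its fenestrated lining. Neither preparation was aimed at macrophages. The 4 groups had 3 libraries each, all from male C57BL/6 mice that entered treatment at 6 to 8 weeks and are labelled as 12 to 14 weeks old. F-HSC and F-SEC came from mice given carbon tetrachloride (CCl4), a hepatotoxin, intraperitoneally at 0.6 µl per g body weight as a 15% dilution in olive oil, 2 times a week for 6 weeks. Q-HSC and Q-SEC came from mice given olive oil alone. Per the study's methods HSC were taken by density gradient, and SEC by a gradient followed by magnetic beads. The labels leave unsaid whether each library is from its own mouse, and the p-values therefore reflect library-to-library spread that could be technical.

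Kupffer cells line the sinusoids, where they take up microbes, immune complexes, worn-out red cells and dying cells from portal blood. They are seeded before birth and renew themselves, and when they are lost in injury, monocytes that enter the liver can take on parts of their program, with Clec4f among the genes gained early and Timd4 among the last. The genes followed here encode surface receptors (Clec4f, Vsig4, Timd4, Marco, Cd163, Folr2), a secreted scavenger protein (Cd5l), a transcription factor (Spic) and proteins of iron and haem handling (Slc40a1, Hmox1). Spic, Slc40a1 and Hmox1 belong together in the mouse, since haem from red cells induces Spic, which is needed for iron-recycling macrophages.

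Promoters were taken from RefSeq (GRCm38.p6), which held a window of 250 bases before to 50 bases after the start site for 8 of the 10 genes and not for Slc40a1 and Hmox1. Both strands were searched for GAGGAA (the core bound by the macrophage factor PU.1), TGANTCA (AP-1), AGGTCA (a nuclear receptor motif), CACGTG (the E-box of MITF and TFEB) and TATAAA (the TATA box). GAGGAA was present in 3 of the 8 windows (Vsig4, Cd5l and Marco) and in 28.3% of all 32851 windows of the same length, AGGTCA in 2 (Clec4f and Timd4) and in 16.3%, and TGANTCA in 1 (Folr2) and in 7.81%. CACGTG and TATAAA, found in 7.15% and 13.6% of all windows, were in none of the 8. The windows of the 3 receptors with the lowest fold in F-HSC and of Cd5l, which rose in F-SEC, are shown 5′ to 3′ on the strand of the gene, with every match to these letters in capitals. The Clec4f window is chr6:83656067-83656366 on the minus strand, and those of Timd4 (chr11:46810549-46810848), Cd163 (chr6:124304401-124304700) and Cd5l (chr3:87357631-87357930) are on the plus strand.
Clec4f: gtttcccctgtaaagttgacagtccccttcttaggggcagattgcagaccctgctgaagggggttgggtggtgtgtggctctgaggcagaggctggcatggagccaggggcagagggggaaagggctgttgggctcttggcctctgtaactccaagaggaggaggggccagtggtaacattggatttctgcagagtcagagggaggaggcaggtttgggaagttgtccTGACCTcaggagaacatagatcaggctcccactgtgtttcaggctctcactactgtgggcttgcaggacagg
Timd4: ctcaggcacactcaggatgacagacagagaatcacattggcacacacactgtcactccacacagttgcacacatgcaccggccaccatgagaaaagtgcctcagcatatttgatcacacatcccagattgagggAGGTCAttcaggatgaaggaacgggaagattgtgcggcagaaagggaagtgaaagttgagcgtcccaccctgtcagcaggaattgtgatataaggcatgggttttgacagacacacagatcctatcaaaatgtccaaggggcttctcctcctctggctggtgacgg
Cd163: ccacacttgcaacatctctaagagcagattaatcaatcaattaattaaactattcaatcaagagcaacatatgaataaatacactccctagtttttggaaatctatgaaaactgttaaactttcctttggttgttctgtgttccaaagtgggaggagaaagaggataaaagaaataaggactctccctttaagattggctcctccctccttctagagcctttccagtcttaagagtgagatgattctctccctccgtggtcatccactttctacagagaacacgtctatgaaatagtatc
Cd5l: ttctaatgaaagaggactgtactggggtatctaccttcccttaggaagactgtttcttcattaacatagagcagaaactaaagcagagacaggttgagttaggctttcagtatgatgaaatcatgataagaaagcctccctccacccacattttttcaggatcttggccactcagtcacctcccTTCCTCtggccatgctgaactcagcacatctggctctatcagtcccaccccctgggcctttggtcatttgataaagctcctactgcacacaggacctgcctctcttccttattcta
The capitals mark AGGTCA or its complement in Clec4f, 22 bases before the start site, and in Timd4, 116 bases before it, and GAGGAA read from the other strand in Cd5l, 66 bases before it. No match was found in the Cd163 window. A match here is a description of letters and not a bound site.

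Gene counts per library summed to between 8714228 and 13068564, so that 3 counts, taken as the floor of a library, stood for 0.229 to 0.335 CPM (read counts normalised to the TMM-adjusted library size). Floors cover counting error only. The stellate marker list (12 genes with Lrat and Reln) summed to 5615 to 9845 CPM in F-HSC, 739 to 3845 CPM in Q-HSC, 12084 to 23850 CPM in F-SEC and 168 to 2743 CPM in Q-SEC. The stellate sum was thus higher in every F-SEC library than in any F-HSC library, though single genes of the list, such as Reln and Acta2, overlapped. The 14-gene pan-macrophage list, with Csf1r, Adgre1 (F4/80), Cd68 and Lyz2, summed to 5289 to 14158 CPM in F-HSC, 4195 to 11055 CPM in Q-HSC, 2143 to 3640 CPM in F-SEC and 409 to 712 CPM in Q-SEC. In all 3 Q-HSC libraries the macrophage sum was larger than the stellate sum. The hepatocyte list summed to 10169 to 22118 CPM in F-HSC and 2248 to 5909 CPM in Q-HSC, and the monocyte list to 2306 to 5718 CPM in F-HSC and 525 to 918 CPM in Q-HSC. Most of the monocyte sum in F-HSC was Fn1 alone, with 1740, 2663 and 5258 CPM, against 278, 378 and 213 CPM in Q-HSC.

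Most of the reads of these 10 genes came from the HSC preparation. All 10 were higher in Q-HSC than in Q-SEC (edgeR quasi-likelihood test, adjusted p under 0.05), where 14.3% of the 14489 genes tested were called higher and 15.5% lower, and in none did the groups overlap. For 8 of the 10 the differences were nearly equal, between 4.48 (Vsig4) and 5.0 (Cd163) on the log2 scale, or 22.3 to 31.9-fold. The exceptions were Slc40a1 (ferroportin, the iron exporter), at 2.06 ± 0.43 (SE), and Hmox1 (haem oxygenase 1, which opens the haem ring), at 2.58 ± 0.45. Between the CCl4 groups, 9 of 10 were higher in F-HSC than in F-SEC, where 12.8% of all genes were called higher and 12.6% lower, with log2 differences of 1.62 (Hmox1) to 3.10 (Marco). Slc40a1 had 942, 791 and 600 CPM in F-HSC, against 266, 644 and 393 CPM in F-SEC, and missed the threshold (0.84 ± 0.42, adjusted p = 0.17). The replicate numbers paired the libraries in this comparison, and with the number as a block 6 of the 9 kept an adjusted p under 0.05, while Clec4f (0.0512), Cd163 (0.0637) and Cd5l (0.0672) did not. The count was 7 with limma-voom, where Cd5l (0.055) and Cd163 (0.107) missed, and with no filter beyond 1 read, where Clec4f (0.0521) and Cd5l (0.0533) did. Without F-SEC replicate 1 or without F-SEC replicate 3 the count was 2, and without F-HSC replicate 1 it was 4. In bulk samples fewer cells of a type and less RNA per cell cannot be told apart.

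**Figure D1:**
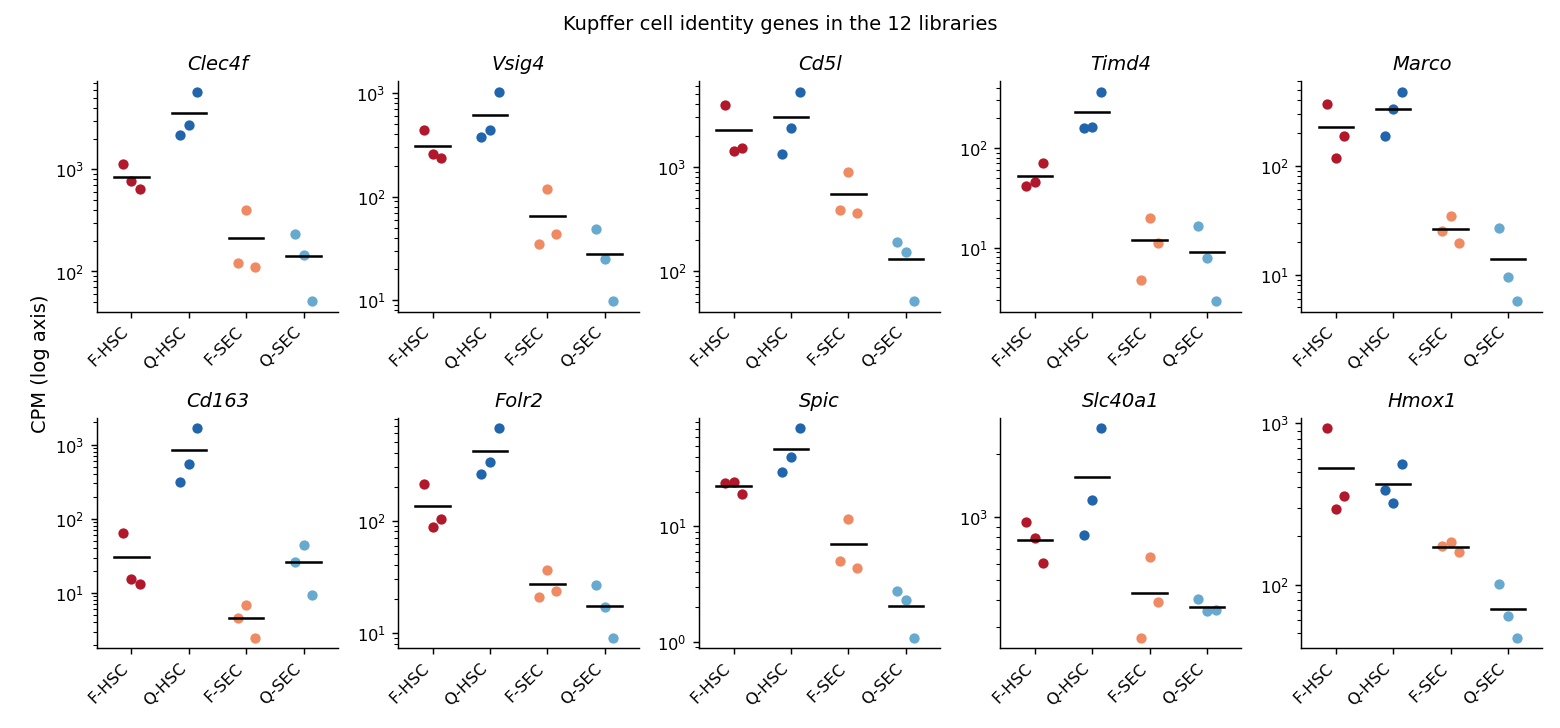
CPM of the 10 genes on a log axis in the 12 libraries, with 1 point for each library (numbers 1, 2 and 3 from left to right) and the mean as a bar. Clec4f, Timd4, Cd163, Folr2 and Spic lie lower in all F-HSC libraries than in any Q-HSC library, and all 10 genes lie higher in Q-HSC than in Q-SEC.

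Within a group the genes stood in a wide order of level. By RPKM, the deposited value per kilobase, Cd5l led in F-HSC with 912.8 ± 609 (SD, n = 3), followed without overlap by Clec4f with 283.6 ± 98.1, and Cd163 came last with 5.67 ± 5.49, overlapping Spic. In Q-HSC, Clec4f (1189 ± 620 RPKM) and Cd5l (1181 ± 787 RPKM) overlapped at the top, Cd163 was seventh with 150.1 ± 126 RPKM, and Spic was last with 29.9 ± 13 RPKM. In F-SEC, Cd5l led with 213.4 ± 110 RPKM and Cd163 was last with 0.816 ± 0.350 RPKM, below every library of Timd4, the next. In Q-SEC, Slc40a1 led without overlap at 80.4 ± 7.65 RPKM and Spic was last at 1.16 ± 0.464 RPKM. Most neighbours in these orders overlapped in their libraries.

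Comparison of F-HSC with Q-HSC asked how the stellate preparation differed after 6 weeks of CCl4. Of the 10 genes 4 were lower (Cd163, Timd4, Folr2 and Clec4f) and 0 higher by edgeR at an adjusted p under 0.05, where 17.6% of all genes tested were called lower and 14.7% higher. At an unadjusted p under 0.05, 6 were lower and 0 higher, and DESeq2 and limma-voom called 0 higher too, DESeq2 with 6 lower and limma-voom with 4. The median of the 10 was -1.03 on the log2 scale, beside -0.02 for all genes. Dendritic cell genes were lower as well, with 6 of 8 called lower and 0 higher (summed to 53.6 to 93.8 CPM in F-HSC, against 244 to 420 CPM in Q-HSC). Of these 6, Zbtb46 was lower in Q-HSC than in Q-SEC (-1.53 ± 0.24, adjusted p = 0.00101), and Clec9a was not called there (-0.27 ± 0.23). Both also fell in F-SEC against Q-SEC (Clec9a by 2.42 and Zbtb46 by 0.85 on the log2 scale). Clec9a alone gave 78.1, 103 and 115 CPM of the Q-HSC sums. The part of endothelial cells in both calls was not tested. Among 4 tested erythroid genes 3 were called lower and 0 higher. Of these, Hba-a1 and Hba-a2 had identical values in every library, near the floor in F-HSC (0.305 to 0.732 CPM). The T, NK and B cell list had 2 of 10 genes lower and 0 higher, near the share of all genes. Its sums overlapped (19.1 to 149 CPM in F-HSC, against 144 to 504 CPM in Q-HSC). Neutrophil genes had 0 calls among 7 tested, and the monocyte list had 4 of 12 higher and 2 lower. The part of these cells in the differences of the 10 genes was not tested.

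Cd163, the receptor that takes up haemoglobin bound to haptoglobin, differed most. It had 64.2, 15.5 and 13.2 CPM in F-HSC, against 311, 554 and 1671 CPM in Q-HSC. Every F-HSC library was far below every Q-HSC library, and the log2 difference was -4.76 ± 0.88 (27.2-fold lower, adjusted p = 0.00365). The call held with each library left out in turn (-5.81 to -3.77).

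Timd4, a phosphatidylserine receptor with which resident macrophages bind dying cells, had 41.2, 46.1 and 70.3 CPM in F-HSC, against 159, 161 and 368 CPM in Q-HSC. The groups did not overlap and the log2 difference was -2.13 ± 0.61 (4.37-fold lower, adjusted p = 0.0224). Clec4f, a C-type lectin that binds galactose-bearing glycans and in the mouse is confined to Kupffer cells, had 1115, 761 and 646 CPM in F-HSC, against 2185, 2713 and 5767 CPM in Q-HSC. It fell by 2.08 ± 0.64 on the log2 scale (4.23-fold lower, adjusted p = 0.0308), again without overlap. Folr2, the folate receptor of macrophages, had 212, 87.6 and 102 CPM in F-HSC, against 259, 334 and 662 CPM in Q-HSC (-1.64 ± 0.48, 3.12-fold lower, adjusted p = 0.0241). In GENCODE vM21 (GRCm38) the antisense gene Gm10602 (chr7:101836503-101842771) overlaps Folr2 on the other strand, and since the use of strand in the counting is not given, its reads cannot be told apart from those of Folr2. The calls of Timd4, Clec4f and Folr2 depended on which libraries were present: without F-HSC replicate 2 or without Q-HSC replicate 3 only Cd163 was called, without F-HSC replicate 3 it was Cd163 and Timd4, and the count was 3 without F-HSC replicate 1, 4 without Q-HSC replicate 2 and 6 without Q-HSC replicate 1.

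The other receptors and the secreted scavenger did not pass the test. Vsig4, a complement receptor that captures opsonised bacteria, had 441, 260 and 235 CPM in F-HSC, against 380, 443 and 1036 CPM in Q-HSC (-0.99 ± 0.62, adjusted p = 0.239). Marco, a scavenger receptor for bacteria and particles, had 374, 117 and 189 CPM in F-HSC, against 188, 333 and 483 CPM in Q-HSC (-0.56 ± 0.56, adjusted p = 0.468). In both genes the groups overlapped, with F-HSC replicate 1 above the lowest Q-HSC library. For Marco, F-HSC replicate 3 was barely above it too (189.3 and 188.2 CPM). Cd5l, a secreted protein that macrophages make under the nuclear receptor LXR, had 3916, 1429 and 1504 CPM in F-HSC, against 1336, 2375 and 5317 CPM in Q-HSC (-0.40 ± 0.64, adjusted p = 0.661), and its sign turned to 0.33 without Q-HSC replicate 3.

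Among the iron and haem genes, Spic had 23.9, 24.4 and 19.0 CPM in F-HSC, against 29.4, 40.4 and 71.2 CPM in Q-HSC. The groups did not overlap, but the difference of -1.06 ± 0.41 missed the threshold (adjusted p = 0.0684). Slc40a1 had 942, 791 and 600 CPM in F-HSC, against 820, 1200 and 2646 CPM in Q-HSC (-1.0 ± 0.42, adjusted p = 0.0907). Hmox1 had 932, 293 and 355 CPM in F-HSC, against 385, 322 and 561 CPM in Q-HSC. It was the 1 gene of the 10 with a positive estimate (0.32 ± 0.42, adjusted p = 0.59), which F-HSC replicate 1 decided, since the value was -0.33 without it.

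**Figure D2:**
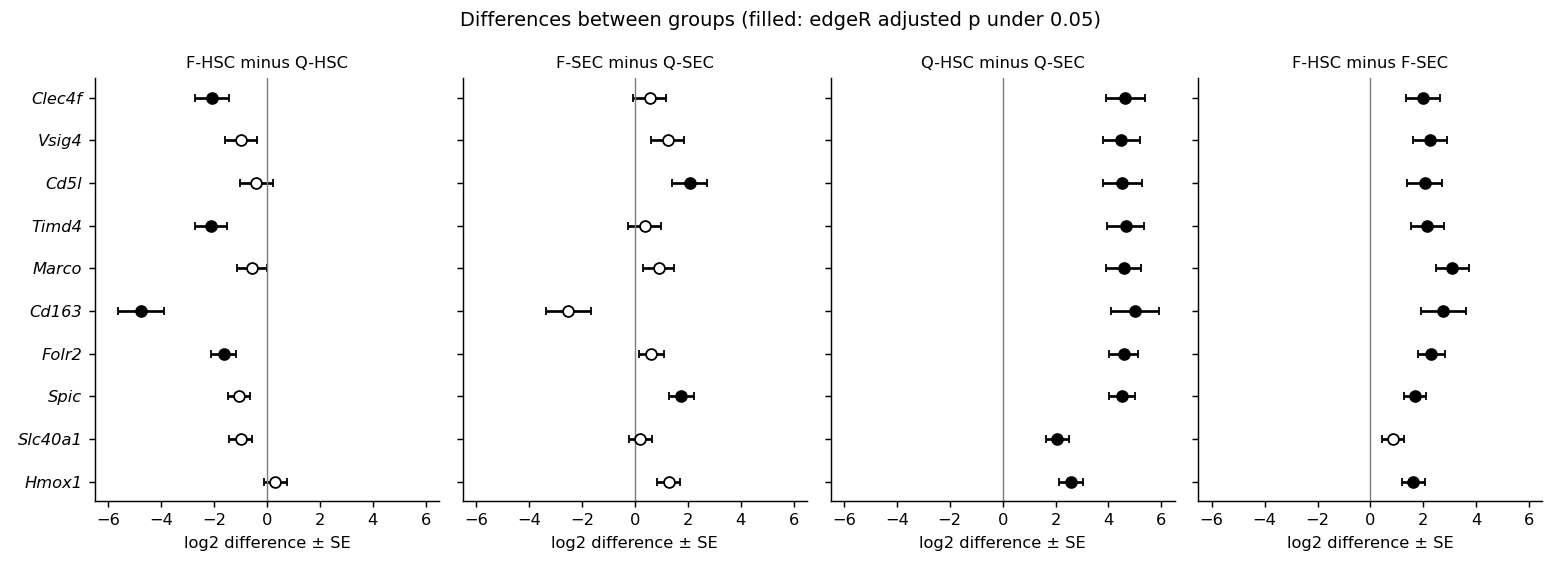
Log2 differences of the 10 genes with their SE in 4 comparisons, on 1 common axis, where filled points have an edgeR adjusted p under 0.05. In F-HSC minus Q-HSC the 4 filled points lie left of 0 and Cd163 lies farthest left at -4.76, in F-SEC minus Q-SEC the 2 filled points (Cd5l and Spic) lie right of 0, and in Q-HSC minus Q-SEC all 10 are filled.

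In the endothelial preparation the 10 genes did not fall together. Cd5l and Spic were higher in F-SEC than in Q-SEC and 0 were lower, where 11.8% of all genes were called higher and 12.1% lower (1705 and 1750 genes, and 2057 and 928 with no scaling factor, which moved the median of all genes by 0.12). At an unadjusted p under 0.05, 3 were higher and 1 lower, and DESeq2 called 3 higher and 1 lower while limma-voom called 2 in all. Cd5l had 382, 902 and 362 CPM in F-SEC, against 189, 152 and 51.0 CPM in Q-SEC. It rose by 2.07 ± 0.66 on the log2 scale (4.19-fold, adjusted p = 0.0445) without overlap, and with the replicate number as a block, which paired the libraries here, the adjusted p was 0.0574. Spic had 5.05, 11.5 and 4.33 CPM in F-SEC, against 2.76, 2.30 and 1.08 CPM in Q-SEC, and rose by 1.76 ± 0.48 (3.38-fold, adjusted p = 0.0244). The count of calls was 0 without F-SEC replicate 2, without Q-SEC replicate 2 or without Q-SEC replicate 3, and 1 without F-SEC replicate 1 or 3.

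Near the threshold, Hmox1 had 174, 183 and 159 CPM in F-SEC, against 101, 64.0 and 46.7 CPM in Q-SEC, without overlap (1.28 ± 0.43, adjusted p = 0.0508). The adjusted p of Hmox1 was 0.028 with the block, 0.0445 with RLE scaling, 0.0095 with DESeq2 and 0.025 with limma-voom, and over the omissions of single libraries it was 0.0349 to 0.166. Cd163 again had a negative estimate, here alone among the 10 genes, with 4.62, 6.78 and 2.48 CPM in F-SEC, against 25.8, 44.0 and 9.50 CPM in Q-SEC. Its groups did not overlap and its difference was -2.51 ± 0.85 (adjusted p = 0.0528). The remaining 6 genes had estimates of 0.21 (Slc40a1) to 1.24 (Vsig4) with overlapping groups, and those of Clec4f (-0.31), Timd4 (-0.22) and Slc40a1 (-0.19) were negative without F-SEC replicate 2.

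The difference between both CCl4 changes, HSC minus SEC, was negative for all 10 genes and for 51.7% of all genes tested, with a median of -2.26 beside -0.02 for all genes. None was called by edgeR, where 0.801% of all genes were called in either direction. At an unadjusted p under 0.05 there were 6, DESeq2 called 4 (Clec4f, Timd4, Folr2 and Spic) and limma-voom 0, and with only the libraries numbered 2 and 3 edgeR called 8. Spic came nearest, at -2.82 ± 0.63 (adjusted p = 0.0676). The 14 genes of the macrophage list had 0 calls and a median of 0.05 in F-HSC against Q-HSC, while 11 were higher and 0 lower, with a median of 2.13, in F-SEC against Q-SEC. Csf1r, the receptor for the growth factor of macrophages, averaged 382 ± 237 CPM in F-SEC and 85.1 ± 29.9 CPM in Q-SEC, and 947 ± 374 CPM in F-HSC and 1457 ± 898 CPM in Q-HSC (SD, n = 3 each). Its part in the differences of the 10 genes was not tested, and the values that follow are set against these markers within each library.

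Set against macrophage markers, the sum of the 10 genes was lower after CCl4 in the stellate preparation, and in the endothelial preparation the size of the difference depended on Slc40a1. Their summed CPM divided by that of the 14 pan-macrophage genes was 0.569, 0.723 and 0.695 in F-HSC, against 1.44, 1.36 and 1.68 in Q-HSC. In the endothelial preparation it was 0.484, 0.648 and 0.505 in F-SEC, against 2.08, 1.15 and 1.34 in Q-SEC. With all 10 genes the groups did not overlap in either preparation, and the mean log2 ratio differed by -1.18 in HSC and -1.45 in SEC. Slc40a1 alone, which other liver cells express too, made up 25.6, 27.3 and 34.8% of the sum in F-SEC, against 38.0, 43.2 and 65.8% in Q-SEC. Its share was 11.7 to 20.7% in F-HSC, against 13.6 to 14.2% in Q-HSC. Without it the ratios were 0.360, 0.471 and 0.329 in F-SEC, against 1.29, 0.656 and 0.458 in Q-SEC, so that these groups overlapped, and the difference was -0.93. In HSC it was -1.22 without Slc40a1, and the groups did not overlap. These ratios are a description with no test. With Csf1r alone as the denominator the differences were -0.50 and -1.23, and without Lyz2 and Cd14 in the list they were -0.90 and -1.25.

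**Figure D3:**
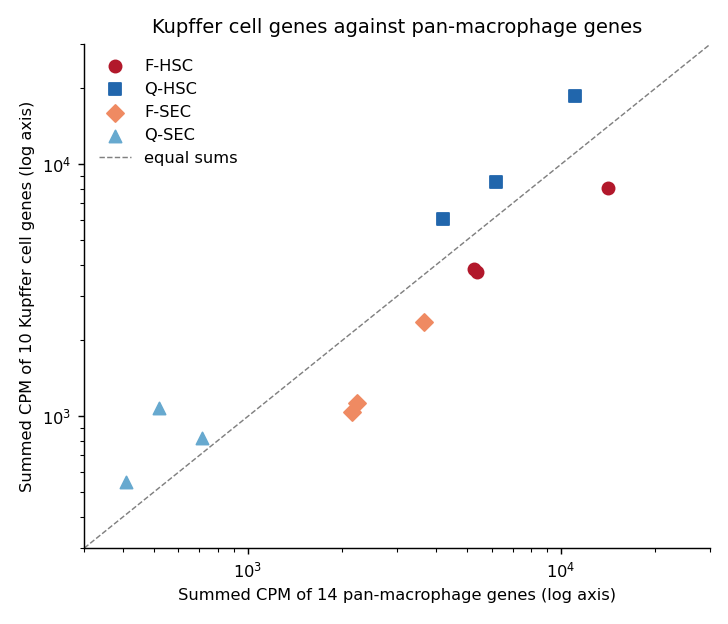
Summed CPM of the 10 Kupffer cell genes against summed CPM of the 14 pan-macrophage genes, both on log axes, 1 point for each library, with a dashed line of equal sums. All F-HSC and F-SEC libraries lie below the line (ratios of 0.484 to 0.723) and all Q-HSC and Q-SEC libraries above it (1.15 to 2.08). Without Slc40a1 in the sum, Q-SEC replicates 2 and 3 fall below the line (0.656 and 0.458).

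Gene by gene, the same view gave a wide range. For each 100 reads of the pan-macrophage list there were 0.453, 0.294 and 0.245 reads of Cd163 in F-HSC, against 7.42, 8.92 and 15.1 in Q-HSC. In the endothelial preparation there were 0.215, 0.186 and 0.111 in F-SEC, against 4.98, 6.19 and 2.32 in Q-SEC. The ratio of group means was 0.0316 in HSC and 0.038 in SEC. Clec4f had 7.88, 14.4 and 12.0 reads per 100 in F-HSC, against 52.1, 43.7 and 52.2 in Q-HSC. In the endothelial preparation Clec4f had 5.63, 11.0 and 4.92 in F-SEC, against 44.6, 20.3 and 12.5 in Q-SEC. Its ratios of means were 0.232 and 0.279, those of Timd4 were 0.254 and 0.25, and those of Folr2 were 0.288 and 0.313, all without overlap. Marco and Vsig4 lay higher, at 0.59 and 0.379 for Marco and at 0.485 and 0.448 for Vsig4, and the Vsig4 groups overlapped in SEC.

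Cd5l had ratios of means of 0.70 in HSC and 0.836 in SEC, and its SEC groups overlapped. Spic had ratios of 0.493 without overlap in HSC and 0.666 with overlap in SEC. Slc40a1 and Hmox1 are also expressed by other liver cells. Slc40a1 had 12.4, 17.7 and 17.6 reads per 100 in F-SEC, against 78.8, 49.8 and 87.9 in Q-SEC, and 6.66, 15.0 and 11.2 in F-HSC, against 19.6, 19.3 and 23.9 in Q-HSC. Hmox1 overlapped in HSC, with a ratio of 0.965, and stood at 0.507 in SEC. The size of these ratios depended on the denominator: per read of Csf1r the ratio for Cd5l was 1.15 in HSC and 1.02 in SEC with overlap, and per read of Adgre1 it was 0.67 and 0.671 without overlap, while for Cd163 the ratios were 0.0547 and 0.0472 per Csf1r read and 0.031 and 0.0287 per Adgre1 read. The ratios gene by gene, to any of these denominators and to Clec4f, were chosen after seeing the data.

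**Figure D4:**
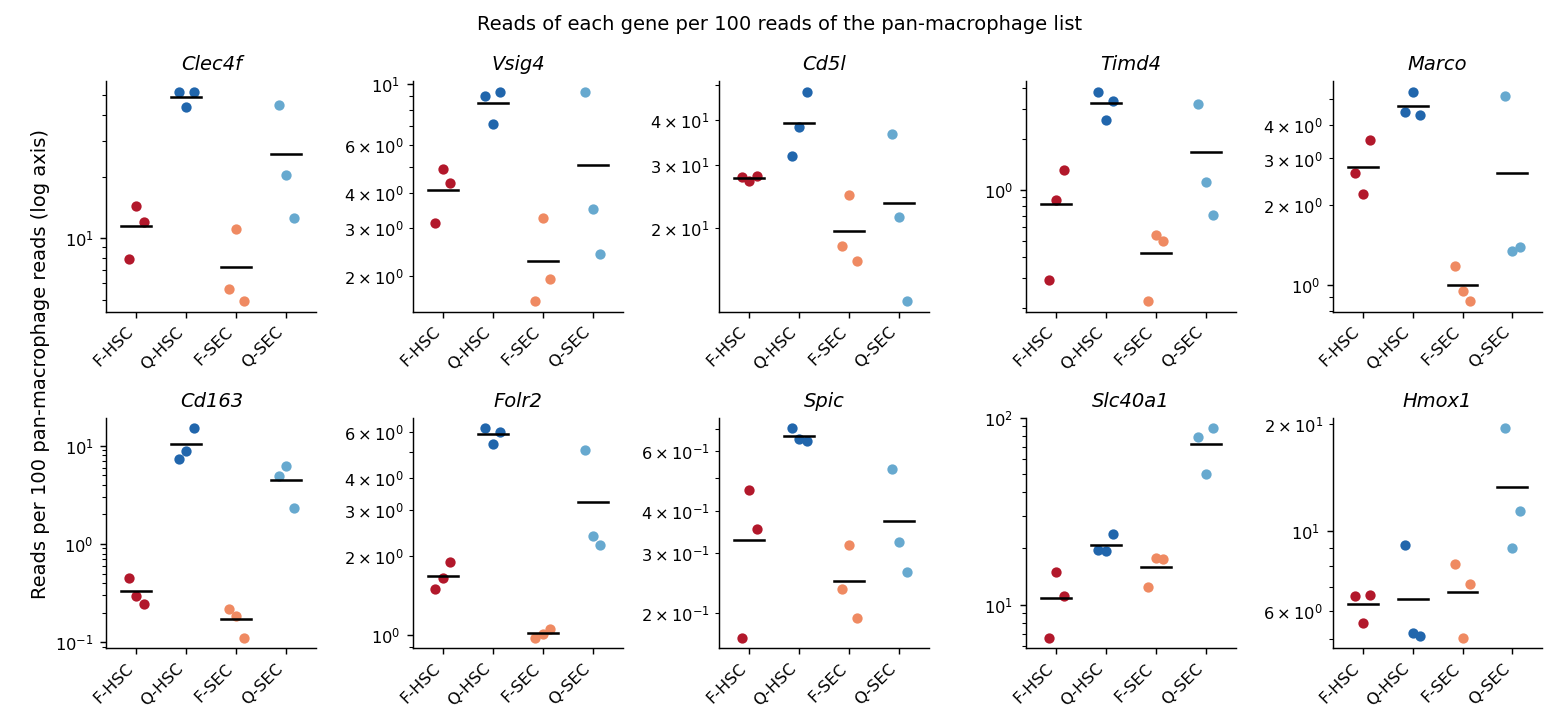
Reads of each gene per 100 reads of the pan-macrophage list, on a log axis, in the 12 libraries, with the mean as a bar. Cd163, Clec4f, Timd4 and Folr2 lie lower in F-HSC than in Q-HSC and lower in F-SEC than in Q-SEC, with Cd163 lowest in relation to its controls (ratios of means of 0.0316 and 0.038).

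Ratios within the set used no outside marker. There were 3.51, 1.88 and 2.33 reads of Cd5l per read of Clec4f in F-HSC, against 0.611, 0.875 and 0.922 in Q-HSC. The endothelial libraries had 3.17, 2.25 and 3.29 in F-SEC, against 0.819, 1.05 and 0.996 in Q-SEC. All 6 CCl4 libraries thus lay above all 6 oil libraries, and the ratios of means were 3.20 and 3.04. Spic per Clec4f was higher by 2.04 and 2.25 times and Vsig4 per Clec4f by 2.13 and 1.71 times, without overlap. Hmox1, Marco and Slc40a1 per Clec4f were higher by 4.52, 2.67 and 2.20 times in HSC, also without overlap. In SEC their groups overlapped, with ratios of means of 1.87, 1.61 and 0.657. Cd163 per Clec4f was lower, with 0.0575, 0.0204 and 0.0204 in F-HSC, against 0.142, 0.204 and 0.290 in Q-HSC, and ratios of means of 0.155 in HSC and 0.129 in SEC. Timd4 per Clec4f averaged 0.0688 in F-HSC and 0.0653 in Q-HSC, and 0.0631 in F-SEC and 0.0612 in Q-SEC, with overlap in both. Folr2 per Clec4f also overlapped in both preparations (1.30 and 1.17 times).

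**Figure D5:**
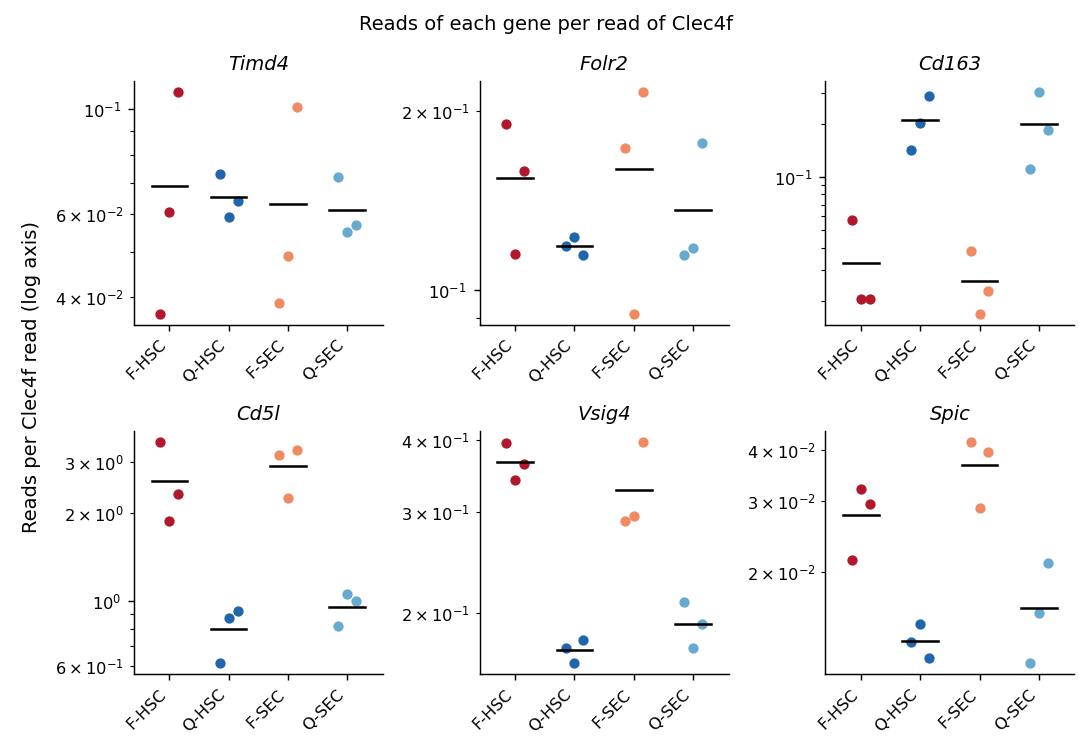
Reads of 6 of the genes per read of Clec4f, on a log axis, in the 12 libraries, with the mean as a bar. Cd5l, Vsig4 and Spic lie higher in F-HSC and F-SEC than in their controls, Cd163 lies lower, and Timd4 and Folr2 overlap.

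Across the 12 libraries the 10 genes varied together, as a description over libraries that share depth and preparation. The highest Pearson correlation of log2 CPM was between Clec4f and Folr2 (r = 0.985), and each gene other than Cd163 had another member at 0.931 or above. Cd163 reached at most 0.842, with Clec4f, and was the least alike partner of 6 others that include Vsig4 and Cd5l, down to 0.498 with Hmox1. Among 10255 further genes averaging 10 CPM or more, those nearest to the average profile of the set were Naip1 (r = 0.992), Scimp (0.990), Bank1 (0.990), Cd86 (0.988), Cfp (0.988), P2ry13 (0.987), Lilra5 (0.985), 6330416G13Rik (0.983), Cd300e (0.982) and Pcolce2 (0.982).

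Other genes of Kupffer cells and of iron recycling gave context. The counts in F-HSC against Q-HSC are read beside the 17.6% of all genes called lower and the 14.7% called higher. Of 22 other Kupffer cell genes, 5 were lower and 1 higher in F-HSC than in Q-HSC, near those shares. C6, a complement component, averaged 66.0 ± 19.1 CPM in F-HSC and 406 ± 232 CPM in Q-HSC (-2.62 ± 0.43, adjusted p = 0.00214), and Kcna2, a potassium channel, averaged 45.9 ± 17.5 CPM in F-HSC and 270 ± 134 CPM in Q-HSC (-2.55 ± 0.45, adjusted p = 0.00295). Clec1b, which lies on sinusoidal endothelium as well, fell by 1.26 ± 0.35 on the log2 scale (adjusted p = 0.0198). Cfb, complement factor B, was the 1 that rose, by 1.22 ± 0.35 (adjusted p = 0.0216). In F-SEC against Q-SEC 9 were higher and 1, Clec1b, was lower (-1.20 ± 0.35, adjusted p = 0.031), beside 11.8% of all genes called higher and 12.1% lower. Of the 14 pan-macrophage genes 11 were higher and 0 lower in that comparison.

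The 23 genes of iron and haem recycling, 4 of them among the 10, gave another picture. In F-HSC against Q-HSC 7 were higher and 1, Cd163, was lower. Fth1, the ferritin heavy chain, averaged 2993 ± 1155 CPM in F-HSC and 1011 ± 145 CPM in Q-HSC (1.57 ± 0.26, adjusted p = 0.00226). Steap3, a ferrireductase, rose by 2.14 ± 0.46 (adjusted p = 0.00687) and Slc48a1, a haem transporter of the phagosome, by 0.81 ± 0.20 (adjusted p = 0.0119). Hepatocytes express several genes of this list, and the summed hepatocyte list was higher in all F-HSC libraries than in any Q-HSC library, with 4 of its 10 genes called higher and 1, Pck1, lower (-2.83 ± 0.63, adjusted p = 0.00781). Their part in these differences was not tested.

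Of 23 macrophage transcription factors, 2 were higher and 4 lower in F-HSC than in Q-HSC, no more than among all genes. Maf fell by 1.46 ± 0.23 on the log2 scale (adjusted p = 0.00176) and Tfec by 1.09 ± 0.23 (adjusted p = 0.00576). Maf was lower in Q-HSC than in Q-SEC (858 ± 81.8 and 1380 ± 103 CPM, edgeR adjusted p = 0.0395). Bhlhe41 rose by 4.25 ± 0.80 (adjusted p = 0.00382) and Bhlhe40 by 1.39 ± 0.20 (adjusted p = 0.00139). Bhlhe41 had 53.7, 8.32 and 8.24 CPM in F-HSC, against 1.37, 1.85 and 0.447 CPM in Q-HSC, so F-HSC replicate 1 stood far above the rest. Of 23 genes for clearance of dying cells, 3 were higher and 4 lower, again near the shares of all genes. The receptor kinase Mertk fell by 1.07 ± 0.35 (adjusted p = 0.0368) and the bridging protein Mfge8 rose by 1.5 ± 0.22 (adjusted p = 0.00136). Of 21 tested genes for signals of the Kupffer cell niche, 3 were higher and 4 lower. The Notch ligand Dll4, by which endothelium instructs monocytes, fell by 1.90 ± 0.33 (adjusted p = 0.00271), and Bmp2 fell by 1.91 ± 0.30 (adjusted p = 0.00176). The 3 that rose were Ccl2, a chemokine that draws monocytes (1.31 ± 0.31, adjusted p = 0.01), Tgfbr1 (0.76 ± 0.22, adjusted p = 0.025) and the Notch ligand Jag1 (0.95 ± 0.31, adjusted p = 0.0386). The sinusoidal endothelial list was lower in F-HSC as well (2457 to 4364 CPM, against 9206 to 12463 CPM in Q-HSC). Its part in the differences of Maf, Mertk and the niche genes was not tested.

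Genes of scar-associated macrophages, the monocyte-derived cells found in fibrotic liver, were also measured. Of 12, 11 were higher and 0 lower in F-HSC than in Q-HSC, where 14.7% of all genes were called higher and 17.6% lower. The counts were 7 and 0 for F-SEC against Q-SEC, beside 11.8% and 12.1% of all genes. Gpnmb, a lysosomal glycoprotein that marks these macrophages, averaged 2687 ± 3461 CPM in F-HSC and 5.91 ± 0.985 CPM in Q-HSC (8.82 ± 1.07 on the log2 scale, adjusted p = 0.000704). In F-SEC it averaged 486 ± 161 CPM, against 0.606 ± 0.335 CPM in Q-SEC (adjusted p = 0.00074). Of the monocyte list, 4 of 12 genes were higher and 2 lower in F-HSC, and 6 were higher and 0 lower in F-SEC. The part of other cells in these counts, such as hepatocytes, whose summed list was higher in F-HSC, was not tested.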

How the data were processed

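Bulk RNA was sequenced on an Illumina instrument, and the submitters' processing notes name bcl2fastq, TopHat2 2.0.13 and the build mm10. The authors deposited 1 table with read counts and RPKM for each annotated entry and library. The counting tool and its use of strand are not given in the sources used here. The deposited RPKM values follow counts divided by the deposited length and by the library's total, clone entries included, to within 0.1% for 93.88% of values, and were used only to order genes by level. The table had 56826 lines, 1 without values, and the 33353 cDNA clone entries (16.3 to 24.9% of counts per library) were set aside, which left 23472 gene entries. Library 1 of each group is the one whose title carries no number.

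The test was run with edgeR 4.0.16 (R 4.3.3) over all 12 libraries: filterByExpr (14489 genes), TMM factors (0.899 to 1.09), robust quasi-likelihood fit with 1 coefficient per group and 8 residual degrees of freedom, Benjamini-Hochberg adjustment over all tested genes, calls under 0.05. The procedure was tested on simulated data. No covariate was used. Ratios used counts within a library. The 10 genes and the gene lists were chosen with earlier results of these data known. All 10 genes were named, and from each other list up to 4 with the lowest adjusted p and any called against the direction of most. Symbols of 5 list genes were matched through RefSeq synonyms, and Ly6g was not matched. As a check of pairing, deviations from the group means were correlated between libraries of the same number: the correlations were 0.31, 0.25 and 0.16 for F-SEC with Q-SEC and 0.47, 0.45 and 0.43 for F-HSC with F-SEC, so these were taken as paired. For F-HSC with Q-HSC and for Q-HSC with Q-SEC at least 1 was under 0.1. No 2 libraries of a group were duplicates (chi-square per degree of freedom of 21.0 or more). The alternatives were DESeq2 1.42.0, limma-voom (limma 3.58.1), RLE scaling, no scaling factor, filters at 1 read in all or at 10 CPM in 3 libraries, the replicate block, leaving out Rn45s and Lars2, only libraries 2 and 3, only the 6 libraries compared, and leaving out each library. Adgre1 alone as denominator and the sum without Slc40a1 were chosen after seeing the data.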

Additional observations from a re-analysis of the deposited data

Results flagged for a closer look

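Spic was lower in every F-HSC library than in any Q-HSC library (19.0 to 24.4 CPM, against 29.4 to 71.2 CPM) and higher in every F-SEC library than in any Q-SEC library (4.33 to 11.5 CPM, against 1.08 to 2.76 CPM). It is the 1 gene of the 10 with opposite directions without overlap. The difference of the log2 changes was -2.82 ± 0.63 with an adjusted p of 0.0676 by edgeR, so it was not called, and 0.00101 by DESeq2, and it was 0.0374 with no scaling factor. Per 100 reads of the pan-macrophage list the directions of Spic were not opposite. The ratios of means were 0.493 in HSC without overlap and 0.666 in SEC with overlap.

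A cDNA clone entry within Spic on the same strand, which was not used in the comparisons, had a mean of 2.50 CPM in F-SEC, with each library (1.66, 3.87 and 1.96 CPM) above every Q-SEC library (1.60, 0.942 and 0.108 CPM). Its counts came to 33.0% of those of Spic. The separation was narrow, with 1.66 CPM in F-SEC replicate 1 and 1.60 CPM in Q-SEC replicate 1. The value of Q-SEC replicate 3 lay below the floor of that library (0.324 CPM). A clone entry within Cd163, at 59.5% of the counts of Cd163, averaged 14.7 ± 14.7 CPM in F-HSC and 510 ± 395 CPM in Q-HSC, and 1.70 ± 0.955 CPM in F-SEC and 13.6 ± 6.86 CPM in Q-SEC (SD, n = 3 each). Whether the same reads were counted for gene and clone was not tested.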

How the results depend on the processing

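The higher levels in Q-HSC than in Q-SEC were called for all 10 genes under every alternative run. For F-HSC against Q-HSC 3 to 6 members were called outside the omissions of single libraries, and 1 to 6 with each library left out (all genes 2612 to 4365). For F-SEC against Q-SEC the 2 calls became 3 with RLE scaling, no scaling factor, the filter at 10 CPM or Rn45s and Lars2 left out, 1 with no filter beyond 1 read, 4 with DESeq2, 5 with only libraries 2 and 3 and 4 with only the 6 libraries compared, and 0 to 3 with each library left out (all genes 1710 to 3179). For the difference of the CCl4 changes the count of members was 1 with no scaling factor, 4 with DESeq2 and 8 with only libraries 2 and 3, beside 256, 911 and 1712 of all genes, while limma-voom called 25 of all genes, and with each library left out it was 0 to 3 members and 3 to 743 of all genes. With no scaling factor the calls over all genes split into 2762 higher and 1394 lower for Q-HSC against Q-SEC (2074 and 2243 with TMM) and into 26 and 230 for the difference of the CCl4 changes (34 and 82), with the median of all genes moved by 0.18 and -0.19. For F-HSC against F-SEC 7 of the 9 members were called with limma-voom or no filter beyond 1 read, 4 with only libraries 2 and 3, and 2 to 8 with each library left out (all genes 2445 to 3285), beside 3032 to 4160 for Q-HSC against Q-SEC. With the replicate block 4, 2, 0, 10 and 6 members were called for F-HSC against Q-HSC, F-SEC against Q-SEC, the difference, Q-HSC against Q-SEC and F-HSC against F-SEC, and 183 of all genes for the difference. Beside the calls given with the results, the block changed no other call of a member than that of Hmox1 in F-SEC. With libraries left out, values ran from -0.98 to 0.33 for Cd5l and -0.33 to 0.64 for Hmox1 in F-HSC against Q-HSC, and from -0.31 to 1.10 for Clec4f, -0.22 to 1.11 for Timd4 and -0.19 to 0.47 for Slc40a1 in F-SEC against Q-SEC. Signs that turned were those of Hmox1 in HSC without F-HSC replicate 1 and with only libraries 2 and 3 (-0.39), of Cd5l without Q-HSC replicate 3, of Clec4f, Timd4 and Slc40a1 in SEC without F-SEC replicate 2 and of Timd4 without Q-SEC replicate 3 (-0.06), none of them called. The sum of the members over macrophage markers moved to -0.50 with Csf1r alone and -0.90 without Lyz2 and Cd14 in HSC, and in SEC to -1.86 with Adgre1 alone and -0.93 without Slc40a1. The causes of these shifts were not tested. The 3 libraries per group, whose independence is not stated, limit the precision of every comparison.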
